A study of Rattus norvegicus with 15 samples.

Results

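The genes described here encode the SNARE proteins and the regulators of vesicle fusion: syntaxins, SNAP and VAMP proteins, the Munc18 and syntaxin-binding proteins, Munc13 proteins, complexins, Rim proteins, synaptotagmins and synaptotagmin-like proteins, Doc2 and rabphilin proteins, and the Rab3 and Rab27 GTPases. They were chosen by gene symbol alone, and 77 of the 28914 genes in the count table matched. The data are polyadenylated RNA of isolated pancreatic islets from 15 Lewis rats, taken 10 weeks after an operation. An age of 4 to 5 weeks is given, but not whether it is the age at surgery. The operation was a partial pancreatectomy that takes out 90% of the organ in 10 rats (Px) and a sham procedure in 5 rats (Sham). The labels give each rat an average blood glucose before sacrifice, without a unit. The Px rats fell into 2 ranges of it, 3 rats at 416 to 464 (higher-glucose Px) and 7 rats at 104 to 211 (lower-glucose Px), against 88 to 96 in the Sham rats. The study asked how hyperglycemia affects islets in this surgical model, in which the islets come from the remnant of the pancreas.

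Endocrine cells store hormones in dense-core granules and release them when calcium enters. A granule is brought to the plasma membrane by Rab3 and Rab27 and their effectors, docked and primed by Munc18, Munc13 and Rim proteins, held by complexin and released on calcium binding to a synaptotagmin. The fusion itself is driven by a bundle of SNAREs, in beta cells mainly syntaxin 1A and SNAP-25 on the plasma membrane and VAMP2 on the granule. Other SNAREs of the same families serve the Golgi, the endosomes and the lysosomes of every cell, and others again serve the granules of acinar cells and leukocytes.

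Library totals were 19108091 to 33423286 counts in Px and 12205650 to 18428397 counts in Sham (exact two-sided permutation p = 0.000666). The labelled tissue was matched by high levels of endocrine markers in every library, and markers of other cells differed between the groups. Acinar markers took 34.5% ± 9.90 of all counts in Px and 5.65% ± 5.94 in Sham libraries (SD, n = 10 and 5, exact permutation p = 0.000333). After scaling by TMM, the summed macrophage markers ran from 732 to 3868 CPM (the counts-per-million unit) in Px libraries, against 31.4 to 70.1 CPM in Sham, and 13 of 13 tested were higher. All 11 fibroblast markers were higher, and their sum was 1357 to 7032 CPM in Px and 166 to 446 CPM in Sham. Of 11 beta cell markers 10 were lower, with a sum of 38760 to 80220 CPM in Px and 87800 to 190100 CPM in Sham. Of 8 genes of the endocrine granule 4 were lower and 0 higher. No alpha, delta or PP cell marker was called lower on this scale. Of 6 alpha cell markers 2 were higher and 0 lower (sum 3626 to 12250 CPM in Px and 5740 to 8787 CPM in Sham). Of 5 delta and PP cell markers 3 were higher and 0 lower (sum 886 to 2839 CPM in Px and 1278 to 2230 CPM in Sham). The part of these cell types in the results below was not tested beyond the values given there. In such bulk samples, fewer cells of a type and less RNA per cell cannot be told apart.

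Together the 77 genes took 0.161% to 0.352% of the counts in Px libraries and 0.639% to 0.715% in Sham libraries, so that the 2 ranges did not overlap. On the TMM scale their sum was 2427 to 3218 CPM in Px and 4460 to 5341 CPM in Sham. A total of 68 of the 77 had enough counts to be tested. Of these, 11 were higher and 40 lower in Px than in Sham (edgeR's quasi-likelihood test, Benjamini-Hochberg adjusted p under 0.05 over all 15199 genes tested), and 17 did not pass. Over all genes 64.7% passed, 34.5% higher and 30.2% lower. The lower calls among the exocytosis genes, 58.8% of those tested, therefore stood above that background, and the higher calls, 16.2%, below it. The median log2 fold change was -0.41 for the exocytosis genes and 0.02 for all genes. Every Px library lay below every Sham library for 27 genes (39.7%, against 16.4% of all genes tested) and above for 7 genes (10.3%, against 20.8%).

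**Figure D1:**
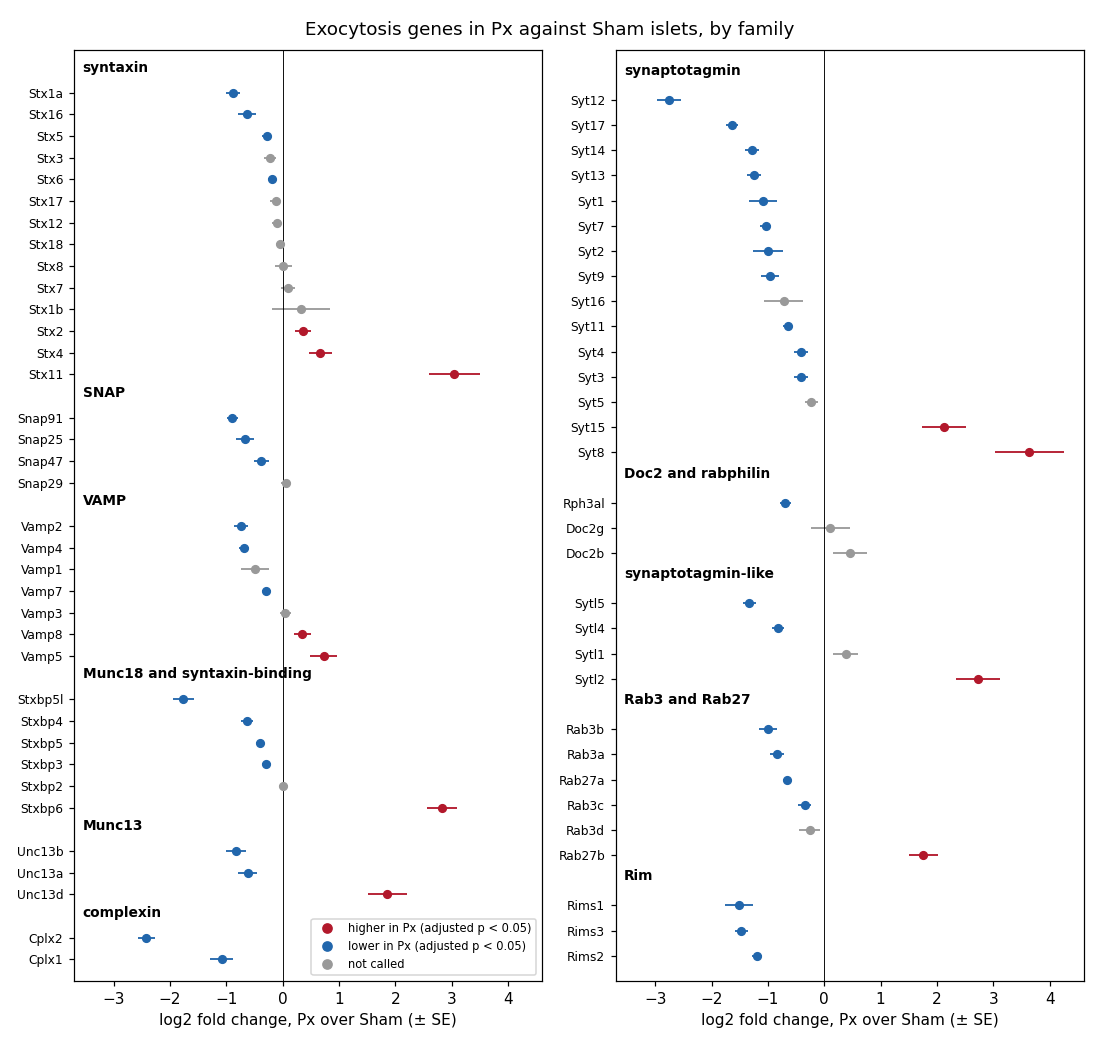
Log2 fold change of Px over Sham (± SE, x axis) for 67 of the 68 tested exocytosis genes, grouped by protein family. Points left of the line are lower in Px: 39 of those drawn passed the adjusted p of 0.05 below 0 and 11 above it.

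By family, no direction was tested against that of the others, and counts are read against the 34.5% higher and 30.2% lower of all genes. All 3 tested Rim genes and both tested complexins fell, as did 11 of 15 synaptotagmins, 5 of 7 Munc18 and syntaxin-binding genes and 4 of 6 Rab3 and Rab27 genes. Among the 14 syntaxins, most of which serve organelles other than the plasma membrane, 4 fell, 3 rose and 7 did not pass. Among the 7 VAMPs 3 fell and 2 rose. The 9 untested genes were Cplx3, Cplx4, Doc2a, Rph3a, Rims4, Syt6, Syt10, Sytl3 and Unc13c, most of them barely detected in either group. Rph3a, which encodes the Rab3 effector rabphilin, was lower in every Px than in any Sham library, with a mean of 0.0340 CPM in Px and 0.615 CPM in Sham. Sytl3, a synaptotagmin-like gene, averaged 0.5 CPM in Px and 0.0739 CPM in Sham, again without overlap.

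The promoters of 3 genes are shown because these genes stand for the 2 directions below: the complexin and the plasma-membrane syntaxin of the secretory granule, both lower in Px, and the leukocyte syntaxin, higher in Px. Each run covers 250 bases before and 50 after the transcription start in RefSeq (GRCr8, all on the minus strand), at chr17:10236704-10237003 for Cplx2, chr12:27306422-27306721 for Stx1a and chr1:9140170-9140469 for Stx11. Capitals mark the E-box CAGATG or its reverse complement.
Cplx2: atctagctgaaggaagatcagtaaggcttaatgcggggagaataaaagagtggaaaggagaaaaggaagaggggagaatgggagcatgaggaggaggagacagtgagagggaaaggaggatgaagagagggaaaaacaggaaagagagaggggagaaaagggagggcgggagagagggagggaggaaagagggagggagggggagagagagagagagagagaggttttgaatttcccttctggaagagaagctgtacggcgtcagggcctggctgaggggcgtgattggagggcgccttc
Stx1a: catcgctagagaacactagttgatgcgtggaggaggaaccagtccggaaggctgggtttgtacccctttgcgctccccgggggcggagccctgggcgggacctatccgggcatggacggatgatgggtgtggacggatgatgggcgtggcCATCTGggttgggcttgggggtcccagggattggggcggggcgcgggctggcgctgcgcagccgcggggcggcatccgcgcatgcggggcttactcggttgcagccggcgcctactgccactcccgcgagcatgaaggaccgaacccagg
Stx11: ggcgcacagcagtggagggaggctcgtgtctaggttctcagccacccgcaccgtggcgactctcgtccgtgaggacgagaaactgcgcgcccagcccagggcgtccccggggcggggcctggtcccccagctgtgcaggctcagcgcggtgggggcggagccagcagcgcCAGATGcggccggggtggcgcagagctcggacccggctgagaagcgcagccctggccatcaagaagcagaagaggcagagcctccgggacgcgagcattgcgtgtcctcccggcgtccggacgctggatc
The Cplx2 window is rich in runs of G and A and holds none of the motifs searched. The Stx1a and Stx11 windows each hold the E-box form CAGATG once, read on either strand. No other form of the E-box was searched. Promoters were listed for 60 of the 77 genes, and both strands were searched. The E-box CAGATG was found in 8 of the 60, against 16.6% of all 33469 promoters, among them 3 of 31 genes that fell (Stx1a, Syt2 and Syt3) and 2 of 10 that rose (Stx11 and Syt15). The cyclic AMP response element TGACGTCA was found in 1 of the 60, against 1.83% of all promoters. The AP-1 motif TGANTCA was found in 1, Rab27b, against 7.33%. The letters GAGGAAGT, a core of PU.1 sites, occur in 2.42% of all promoters and in 0 of the 60. The RE1 motif of neuronal genes occurs in 0.00598% and likewise in 0 of the 60. These matches are descriptions of the windows alone.

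Of the 3 SNAREs that form the fusion bundle of the insulin granule, all fell. Stx1a, the plasma-membrane syntaxin, had 4.66 to 8.57 CPM (median 6.62) in the 10 Px libraries, against 10.9, 11.5, 11.5, 12.8 and 13.5 CPM in the 5 Sham libraries. No Px library reached the lowest Sham library, and the log2 fold change was -0.88 ± 0.12 (SE, edgeR adjusted p = 9.67e-06). Vamp2, the granule SNARE, had 63.9 to 106 CPM (median 82.0) in Px and 116, 116, 158, 159 and 164 CPM in Sham. The groups did not overlap here either (log2 fold change -0.74 ± 0.13, edgeR adjusted p = 8.44e-05). Snap25, whose product pairs with syntaxin 1A, had 70.4 to 144 CPM (median 98.6) in Px, against 127, 130, 146, 206 and 212 CPM in Sham. For Snap25 the highest Px libraries lay within the Sham range, and the log2 fold change was -0.66 ± 0.16 (edgeR adjusted p = 0.00188). It rested in part on the 2 highest Sham libraries, replicates 23 and 24, without which it was -0.38 (adjusted p = 0.0778). The change of Snap25 was also 0 on the log2 scale once a score of acinar markers entered the fit (adjusted p = 0.994), and Stx1a was then at -0.42 (adjusted p = 0.166), while Vamp2 remained lower at -1.26 (adjusted p = 0.00117). The summed acinar markers did not overlap, at 185100 to 852300 CPM in Px and 7341 to 128900 CPM in Sham, so that score and group can be told apart only in part, here and wherever the score is used below.

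Among other SNAREs of the plasma membrane and of granules, Stx4, Stx2 and Vamp8 were called higher and Stx3 was not called. Stx4, a syntaxin that also takes part in insulin release and in glucose transporter traffic, rose, with 18.5 to 38.2 CPM (median 21.9) in Px and 10.7, 11.9, 12.8, 19.8 and 21.8 CPM in Sham. Its log2 fold change was 0.67 ± 0.21 (edgeR adjusted p = 0.0106). The 2 higher Sham libraries, replicates 23 and 24 again, overlapped the Px range, and scaling by library totals left a change of 0.08 (adjusted p = 0.846). Stx2 was called higher as well (log2 fold change 0.36, edgeR adjusted p = 0.0369), but was at -0.27 with library totals (adjusted p = 0.389). Stx3, found on insulin granules, had means of 18.8 ± 2.91 CPM in Px and 21.9 ± 2.34 CPM in Sham (edgeR adjusted p = 0.0939). Vamp8, a granule SNARE of acinar cells and of late endosomes, had 18.1 to 33.9 CPM (median 24.9) in Px and 14.1, 18.2, 20.9, 22.4 and 24.2 CPM in Sham. Its log2 fold change was 0.35 ± 0.15 (edgeR adjusted p = 0.044), and leaving out any of 7 single libraries (lower-glucose Px 2, 4 or 8, higher-glucose Px 19, Sham 23, 25 or 27) ended it, with adjusted p from 0.0632 to 0.149.

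Of the SNAREs of the endomembrane system, Stx16 and Vamp4, which act at the trans-Golgi network, fell, with means of 89.3 ± 16.8 CPM in Px and 140 ± 42.3 CPM in Sham for Stx16, and 17.5 ± 1.85 CPM in Px and 28.1 ± 3.43 CPM in Sham for Vamp4 (log2 fold changes -0.64 and -0.69, edgeR adjusted p = 0.00231 and 6.76e-06). The Stx16 call ended under endocrine granule gene scaling, at -0.24 (adjusted p = 0.417), and the sign turned with the acinar score, at 0.08 (adjusted p = 0.852). Stx5 and Stx6 of the Golgi and Vamp7 of late endosomes fell by 0.28, 0.19 and 0.29 on the log2 scale (edgeR adjusted p = 0.00483, 0.0271 and 0.00713). The endosomal syntaxins Stx7, Stx8 and Stx12, the autophagosomal Stx17, the endoplasmic reticulum syntaxin Stx18, and the widely expressed Snap29 and Vamp3 did not pass, with log2 fold changes of -0.12 to 0.10. Snap91, which despite its symbol encodes a clathrin assembly protein and no SNARE, fell to 42.8 ± 4.93 CPM in Px, against 79.1 ± 7.12 CPM in Sham (log2 fold change -0.89, edgeR adjusted p = 3.61e-07).

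Both tested complexins, which bind the SNARE bundle, fell. Cplx2, a complexin that clamps and then promotes fusion, had 28.1 to 64.3 CPM (median 42.2) in Px libraries, against 175, 221, 229, 243 and 286 CPM in Sham libraries. The highest Px library therefore held under the lowest Sham value by a wide margin, and the Px mean was 18.6% of the Sham mean (log2 fold change -2.42 ± 0.15, edgeR adjusted p = 7.02e-09). Cplx1, expressed far lower per kilobase of exon, had 0.649 to 1.81 CPM (median 1.24) in Px and 2.27, 2.38, 2.59, 2.67 and 3.21 CPM in Sham. It fell in all 10 Px libraries relative to every Sham library (log2 fold change -1.08 ± 0.20, edgeR adjusted p = 0.000185). Of the Munc18 genes, Stxbp3, the partner of syntaxin 4, fell by 0.29 on the log2 scale (edgeR adjusted p = 0.00407), and Stxbp2, the form of epithelial and blood cells, averaged 40.2 ± 4.65 CPM in Px and 39.9 ± 2.72 CPM in Sham (adjusted p = 0.919).

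The tomosyns, which block SNARE assembly, also fell. Stxbp5l had 1.52 to 4.37 CPM (median 2.90) in Px and 7.61, 9.95, 10.2, 10.7 and 12.8 CPM in Sham (log2 fold change -1.76 ± 0.19, edgeR adjusted p = 8.5e-07). Its Px mean was 29.4% of the Sham mean. Stxbp5 averaged 70.2 ± 6.25 CPM in Px and 92.4 ± 6.12 CPM in Sham, without overlap between the libraries (log2 fold change -0.40 ± 0.07, edgeR adjusted p = 0.000169). Both inhibitors and promoters of fusion were thus among the genes that fell.

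Among the priming and docking factors, Unc13a and Unc13b overlapped between the groups, and the Rim genes did not. Unc13a, a Munc13 that opens syntaxin, had 64.1 to 139 CPM (median 82.3) in Px, against 115, 116, 118, 154 and 171 CPM in Sham. The 2 highest of these were Sham replicates 23 and 24, and the log2 fold change was -0.62 ± 0.17 (edgeR adjusted p = 0.0047), or -0.41 (adjusted p = 0.0934) without both. With the acinar score in the fit it was 0.05 (adjusted p = 0.917). Unc13b averaged 65.1 ± 16.4 CPM in Px and 116 ± 32.5 CPM in Sham (log2 fold change -0.83 ± 0.18, edgeR adjusted p = 0.000709). The Unc13b change was -0.15 after adding that score (adjusted p = 0.766). Rims2, which links Rab3 to Munc13 and is known for its role in insulin release, had 14.2 to 19.3 CPM (median 16.4) in Px and 31.3, 37.1, 39.5, 40.9 and 41.3 CPM in Sham. The Rims2 values were tight within each group and did not overlap (log2 fold change -1.20 ± 0.09, edgeR adjusted p = 1.81e-08). Rims3, which encodes a short Rim protein, had 6.17 to 9.13 CPM (median 7.93) in Px, against 16.1, 20.4, 21.1, 25.3 and 25.95 CPM in Sham (log2 fold change -1.47 ± 0.12, edgeR adjusted p = 4.26e-08). Rims1 fell as well, by 1.51 on the log2 scale, at a mean of 0.380 CPM in Px and 1.08 CPM in Sham. Rims1 met the filter level in 2 Px and 5 Sham libraries, and so entered the test through its level in Sham.

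**Figure D2:**
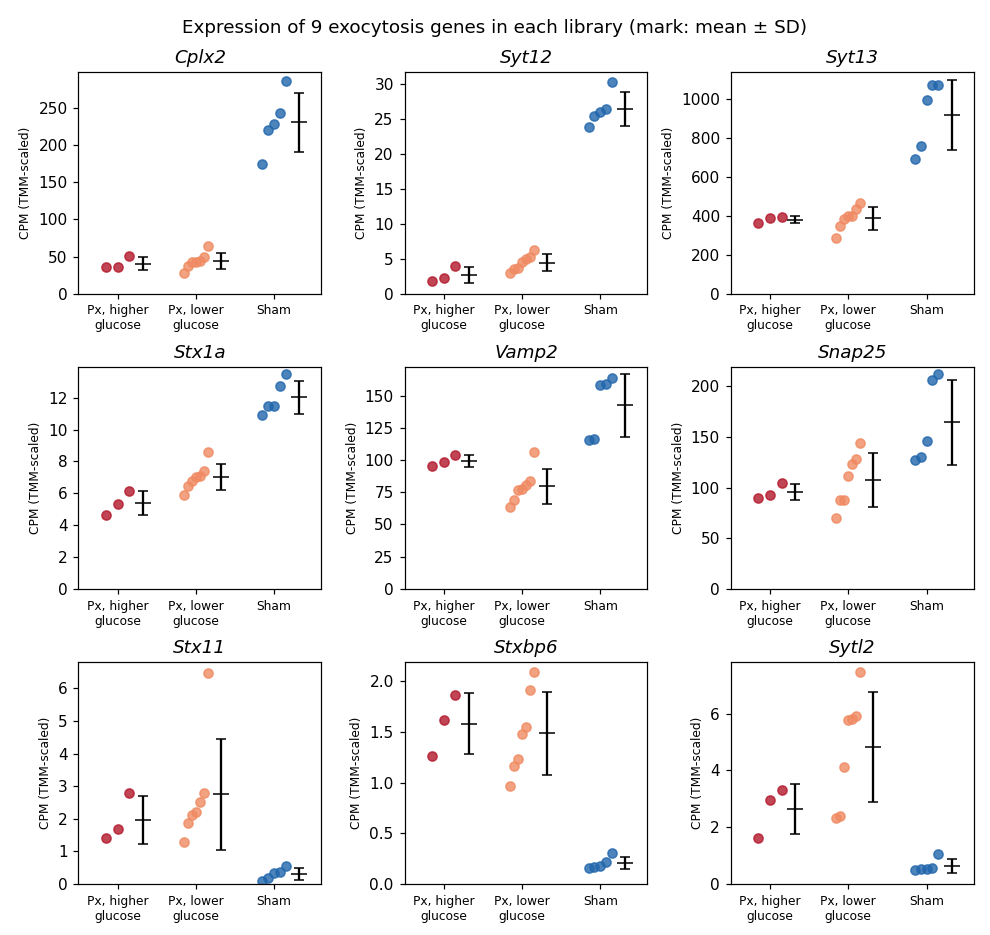
TMM-scaled CPM of 9 exocytosis genes (y axis, linear from 0) in each library of higher-glucose Px (n = 3), lower-glucose Px (n = 7) and Sham (n = 5) rats; the mark beside each group is mean ± SD. In the upper 2 rows the Px libraries lie below all Sham libraries except for Snap25, and in the lowest row they lie above all of them.

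Synaptotagmins with known roles in insulin release fell by different amounts or, in the case of Syt5, did not pass. Syt7, the high-affinity sensor of beta cells, had 66.9 to 110 CPM (median 89.2) in Px and 152, 162, 197, 203 and 206 CPM in Sham (log2 fold change -1.04 ± 0.10, edgeR adjusted p = 3.58e-07). Syt9, a fast sensor on dense-core granules, had 2.24 to 4.76 CPM (median 3.92) in Px, against 6.62, 6.66, 7.33, 8.22 and 8.40 CPM in Sham. It too was lower in every Px library than in any Sham library (log2 fold change -0.97 ± 0.16, edgeR adjusted p = 4.66e-05). Syt4, which in mice lowers the calcium sensitivity of release in maturing beta cells, averaged 279 ± 41.5 CPM in Px and 371 ± 60.4 CPM in Sham, with overlap (log2 fold change -0.41 ± 0.12, edgeR adjusted p = 0.00665). Syt5 averaged 76.3 ± 8.98 CPM in Px and 89.5 ± 20.1 CPM in Sham and did not pass (edgeR adjusted p = 0.0964). Its Sham values were divided, at 68.7 and 72.2 CPM in replicates 23 and 24 and 93.1 to 119 CPM in the others. Without replicate 23 alone Syt5 passed, at -0.32 (adjusted p = 0.0279), and without replicate 24 alone at -0.30 (adjusted p = 0.041). The classical fast sensor Syt1 fell to 4.63 ± 1.84 CPM in Px, against 9.78 ± 2.16 CPM in Sham (log2 fold change -1.08, edgeR adjusted p = 0.00123). Its close relative Syt2 fell to 0.523 ± 0.193 CPM in Px, against 1.05 ± 0.298 CPM in Sham (edgeR adjusted p = 0.00397), having met the filter level in 4 Px and 5 Sham libraries.

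The largest fall in the family was that of Syt12, which like Syt13 and Syt14 is known to lack calcium binding. Syt12 had 1.79 to 6.30 CPM (median 3.83) in Px, against 23.9, 25.5, 26.1, 26.5 and 30.3 CPM in Sham. Its Px mean was 14.8% of the Sham mean (log2 fold change -2.75 ± 0.21, edgeR adjusted p = 2.71e-08). Syt13 was the most abundant member of the whole set per kilobase of exon, with 286 to 465 CPM (median 391) in Px and 693, 757, 994, 1072 and 1072 CPM in Sham. The log2 fold change of Syt13 was -1.25 ± 0.12 (edgeR adjusted p = 2.96e-07), and the groups did not overlap. Syt14 averaged 7.70 ± 1.48 CPM in Px and 18.8 ± 1.44 CPM in Sham (log2 fold change -1.28 ± 0.12, edgeR adjusted p = 2.56e-07). Syt17, a more distant relative, had 13.5 to 22.5 CPM (median 20.1) in Px, against 54.2, 55.8, 58.5, 59.1 and 72.1 CPM in Sham (log2 fold change -1.64 ± 0.11, edgeR adjusted p = 1.17e-08).

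Among the GTPases that tether granules, Rab3a had 23.7 to 42.0 CPM (median 33.3) in Px and 47.9, 48.1, 59.9, 61.0 and 79.8 CPM in Sham. It fell without overlap (log2 fold change -0.84 ± 0.13, edgeR adjusted p = 2.29e-05). Rab27a, the Rab of insulin granules, had 76.1 to 93.7 CPM (median 86.7) in Px, against 117, 125, 143, 146 and 158 CPM in Sham (log2 fold change -0.67 ± 0.07, edgeR adjusted p = 1.02e-06). Effectors of Rab3 and Rab27 in the endocrine pancreas fell with them. Sytl4, or granuphilin, which docks insulin granules, averaged 91.8 ± 12.9 CPM in Px and 162 ± 6.20 CPM in Sham (log2 fold change -0.82 ± 0.10, edgeR adjusted p = 2.03e-06). Rph3al, or Noc2, averaged 92.7 ± 11.5 CPM in Px and 149 ± 23.6 CPM in Sham (log2 fold change -0.69 ± 0.10, edgeR adjusted p = 2.65e-05). Sytl5, a further Rab27 effector, averaged 12.2 ± 1.82 CPM in Px and 30.8 ± 3.57 CPM in Sham (log2 fold change -1.33 ± 0.11, edgeR adjusted p = 4.4e-08).

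The forms of these Rabs known from acinar zymogen granules behaved differently. Rab27b rose, with 3.03 to 7.21 CPM (median 4.10) in Px, against 1.18, 1.27, 1.38, 1.42 and 1.66 CPM in Sham (log2 fold change 1.76 ± 0.25, edgeR adjusted p = 1.12e-05). Every Px library was above every Sham library, but with the acinar score in the fit the change was 1.02 (adjusted p = 0.135). Rab3d averaged 134 ± 37.9 CPM in Px and 160 ± 31.9 CPM in Sham and did not pass (log2 fold change -0.26, edgeR adjusted p = 0.257). With the acinar score it was lower in Px, at -1.35 (adjusted p = 0.00572).

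The largest rises were in genes with low levels in Sham islets. Stx11, the syntaxin of cytotoxic granule release, had 1.28 to 6.49 CPM (median 2.15) in Px, against 0.0889, 0.175, 0.344, 0.370 and 0.556 CPM in Sham (log2 fold change 3.05 ± 0.46, edgeR adjusted p = 2.44e-05). Unc13d, the Munc13 of the same granules, had 3.35 to 12.9 CPM (median 4.89) in Px and 0.787, 0.933, 1.43, 2.01 and 2.53 CPM in Sham (log2 fold change 1.86 ± 0.34, edgeR adjusted p = 0.000149). Both were above all Sham libraries in all 10 Px libraries. The summed macrophage and lymphocyte markers moved with them, the lymphocyte sum being 47.4 to 176 CPM in Px and 6.88 to 13.6 CPM in Sham, with 6 of 6 tested markers higher. With a score of macrophage markers in the fit, Stx11 was at 0.15 and Unc13d at -0.78 (edgeR adjusted p = 0.98 and 0.834). That fit left 0 of all 15199 genes called, because the score and the group can hardly be told apart. The part of these cells in the rise was not tested beyond these values. Sytl2, a Rab27 effector of epithelia, had 1.63 to 7.46 CPM (median 3.71) in Px, against 0.481, 0.516, 0.529, 0.578 and 1.06 CPM in Sham (log2 fold change 2.72 ± 0.39, edgeR adjusted p = 1.28e-05). Duct cell markers moved with it, with 7 of 9 higher. Their sum was 401 to 584 CPM in Px and 195 to 274 CPM in Sham. Acinar (23 of 24 higher), fibroblast (11 of 11) and endothelial markers (6 of 8) moved the same way. The part of any of them in the rise of Sytl2 was not tested. Stxbp6, or amisyn, which binds syntaxin in place of VAMP, had 0.970 to 2.09 CPM (median 1.52) in Px and 0.159, 0.172, 0.175, 0.222 and 0.303 CPM in Sham (log2 fold change 2.83 ± 0.27, edgeR adjusted p = 2.3e-07). Syt15 averaged 3.18 ± 0.915 CPM in Px and 0.720 ± 0.481 CPM in Sham (log2 fold change 2.12 ± 0.39, edgeR adjusted p = 0.000158). Vamp5, known from muscle, rose by 0.73 (edgeR adjusted p = 0.012), with means of 6.45 ± 1.95 CPM in Px and 3.89 ± 1.25 CPM in Sham. Syt8 had the highest fold change, 3.64 ± 0.61, at means of only 1.04 CPM in Px and 0.0801 CPM in Sham. Stxbp6 and Syt8 each met the filter on low counts in 1 Sham library, Stx11 in 3 and Syt15 in 4, where 5 libraries were needed. Each of these genes thus entered the test through its level in Px.

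**Figure D3:**
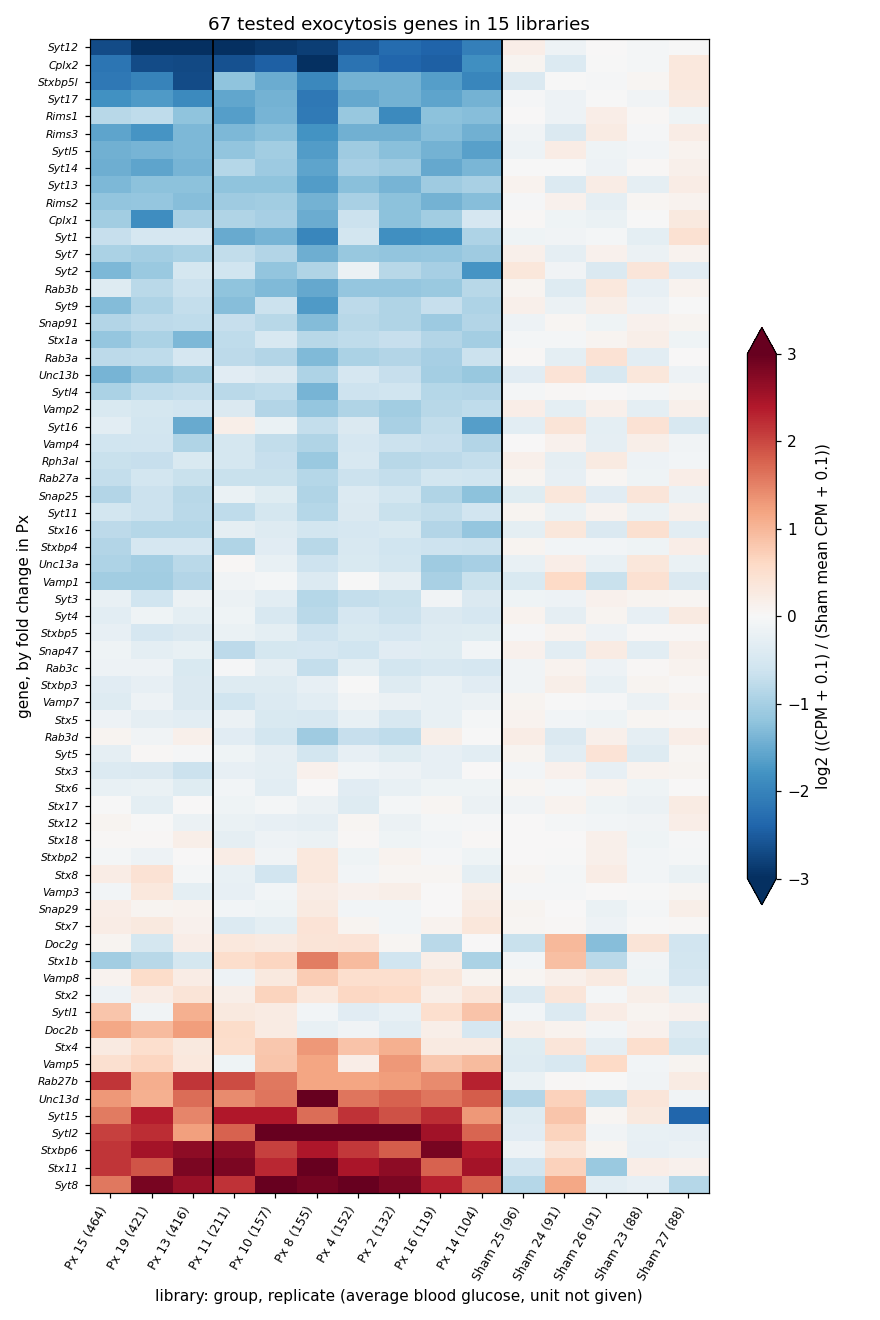
Log2 ratio of each library's CPM to the Sham mean (0.1 added to both) for 67 of the 68 tested exocytosis genes (rows, ordered by fold change in Px) in the 15 libraries (columns, highest average blood glucose first within each group). Blue is lower and red higher than the Sham mean; the blue block of the upper rows and the red block of the lowest rows run through all 10 Px columns.

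Levels of different genes were set side by side per kilobase of exon. In Px libraries Syt13 had a mean of 111 CPM per kilobase, Vamp8 84.8, Syt4 71.7 and Snap25 49.2. In Sham libraries Syt13 had 265 CPM per kilobase, Syt4 95.3, Cplx2 93.2 and Snap25 77.7. Cplx2, close to Syt4 in Sham, had a mean of 17.4 CPM per kilobase in Px. These are levels given as a description, and neighbours in the order were not tested against each other.

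How many genes were called in each direction depended on the scaling of the libraries. TMM factors ran from 0.538 to 1.55. When libraries were scaled instead to 8 genes of the endocrine granule (the chromogranins Chga and Chgb, the granins Scg2, Scg3 and Scg5, and the processing enzymes Pcsk2, Cpe and Pam), the median of all genes shifted to 0.46 and 48.9% of all genes were higher and 6.57% lower. Then 19 exocytosis genes were higher and 20 lower, with a median of 0.01. The 20 were all among the 40 lower under TMM and included Cplx1, Cplx2, Rab3a, Rab3b, Rims1, Rims2, Rims3, Snap91, Stxbp5l, Syt1, Syt7, Syt9, Syt12, Syt13, Syt14, Syt17, Sytl4, Sytl5 and Vamp2. Cplx2 was then at -1.97, Syt12 at -2.26 and Vamp2 at -0.31 (adjusted p = 0.0106). Snap25 (-0.26), Stx1a (-0.42), Unc13a (-0.20), Unc13b (-0.42), Rab27a (-0.22) and Rph3al (-0.24) were among the 20 that no longer passed, and Syt4 and Stxbp5 were at 0.02 and 0.03. All 11 genes higher under TMM remained higher. Of the 8 scaling genes, 4 were themselves lower in Px under TMM and 0 higher. Their sum was 7527 to 13080 CPM in Px and 12950 to 17280 CPM in Sham. Scaling to them holds their level equal, so that the upward shift of all genes is built in. Scaling by library totals shifted the median of all genes to -0.62, with 17.5% of all genes higher and 52.3% lower, and gave 7 exocytosis genes higher and 53 lower.

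**Figure D4:**
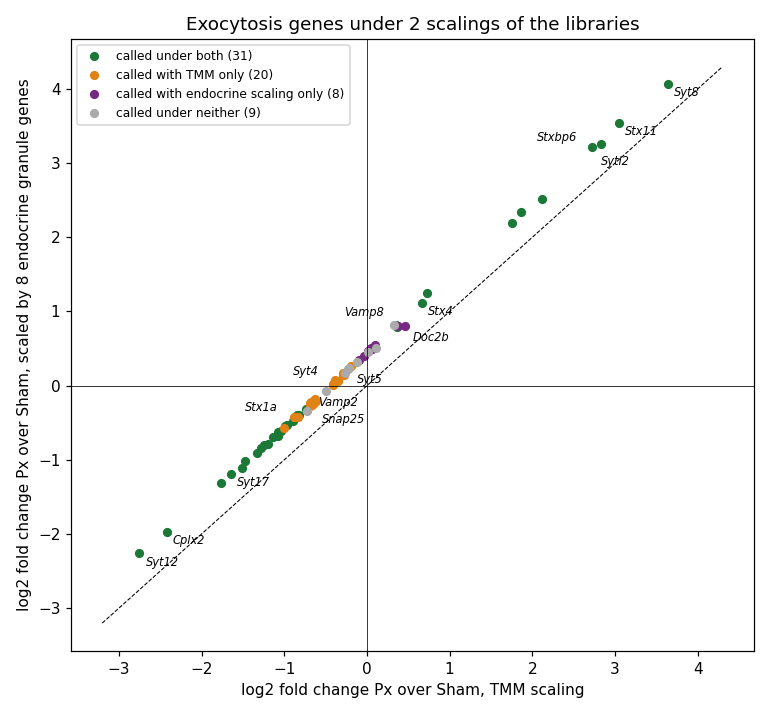
Log2 fold change of Px over Sham for the 68 tested exocytosis genes under endocrine granule gene scaling (y axis) against TMM scaling (x axis); the dashed line marks equal values. All points lie above it: 31 genes passed under both scalings, 20 under TMM alone and 8 under endocrine scaling alone.

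The Sham group was not homogeneous. In 35 of the 68 tested genes, Sham replicates 23 and 24 were both above (17 genes) or both below (18 genes) the other 3 Sham libraries, that is 51.5%, against 44.1% of all genes tested. Snap25, Unc13a, Unc13b, Stx16 and Stx4 were higher in this pair, and Syt13, Vamp2, Rab3a and Syt5 lower. Snap25, for example, averaged 209 CPM in replicates 23 and 24 and 134 CPM in the others. Without both libraries 11 exocytosis genes were higher and 36 lower in Px, where 31.9% of all genes were higher and 26.9% lower, Syt5 fell to -0.43 (edgeR adjusted p = 0.0049) and Stx4 was at 1.04.

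The Px rats were then divided by blood glucose. Set against the same 5 Sham libraries, higher-glucose Px had 10 exocytosis genes higher and 37 lower of 71 tested, where 57.7% of all genes were called, 32.2% higher and 25.5% lower. Lower-glucose Px had 11 higher and 41 lower, where 63.5% of all genes were called, 33.6% higher and 30% lower. The 2 comparisons share their Sham controls, so that their likeness is in part built in. For Cplx2 the log2 fold changes against Sham were -2.51 ± 0.24 in higher-glucose and -2.40 ± 0.17 in lower-glucose Px. For Stxbp5l they were -2.29 ± 0.23 and -1.59 ± 0.17, for Syt12 -3.30 ± 0.28 and -2.58 ± 0.19, and for Stx1a -1.16 ± 0.14 and -0.78 ± 0.11, in the same order of groups. Others were nearer to Sham in higher-glucose Px. Syt1 was at -0.58 ± 0.29 in higher-glucose and -1.36 ± 0.23 in lower-glucose Px, and Vamp2 at -0.53 ± 0.16 and -0.85 ± 0.12. Rph3a and Sytl3 were tested only in this fit of 3 groups. Rph3a was at -3.43 in higher-glucose and -4.17 in lower-glucose Px (edgeR adjusted p = 0.000211 and 1.45e-06), and Sytl3 at 2.38 and 2.88 (edgeR adjusted p = 0.0154 and 0.00101). Rph3a met the filter level used for Px against Sham in 0 Px and 4 Sham libraries, and Sytl3 in 3 Px and 0 Sham libraries. Each thus entered the fit through the group where it is high, and its call is no independent support.

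Set directly against each other, higher- and lower-glucose Px differed in 2 of the 71 exocytosis genes, both higher with higher glucose, where 4.88% of all genes were called, 3.29% higher and 1.59% lower. Doc2b, a soluble calcium sensor that promotes insulin release, had 3.95, 4.66 and 4.95 CPM in the 3 higher-glucose Px libraries, against 1.38 to 3.01 CPM (median 1.87) in lower-glucose Px. In Sham it had 1.49, 1.91, 2.17, 2.22 and 2.27 CPM. The higher-glucose libraries were thus above all others, with a log2 fold change of 1.15 ± 0.22 over lower-glucose Px (edgeR adjusted p = 0.00645), while lower-glucose Px was at 0.00 ± 0.20 against Sham (adjusted p = 0.987). Over all Px libraries Doc2b did not pass (0.46 ± 0.30, adjusted p = 0.197). Rab3b, a Rab3 form of secretory cells, had 27.7, 31.1 and 36.6 CPM in higher-glucose Px, 16.7 to 26.9 CPM (median 21.5) in lower-glucose Px, and 36.9, 41.0, 51.5, 52.1 and 59.9 CPM in Sham. Its higher-glucose libraries lay between the other groups (log2 fold change 0.58 ± 0.15 over lower-glucose Px, edgeR adjusted p = 0.0376). The Rab3b call was lost without any of lower-glucose Px 2, 4, 8 or 10 or higher-glucose Px 13, 15 or 19, at adjusted p from 0.0503 to 0.18. It was also lost under endocrine scaling, at 0.18 (adjusted p = 0.362), and with the acinar score, at 0.52 (adjusted p = 0.0781). Under scaling by library totals neither gene passed (0.63, adjusted p = 0.152 for Doc2b, and 0.10, adjusted p = 0.721 for Rab3b), with the median of all genes then at -0.53.

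No exocytosis gene was called lower with higher glucose by edgeR, and 14 of the 71 had an unadjusted p under 0.05 in either direction, while DESeq2 called 2 higher and 3 lower. Over all 15661 genes 3564 had such a p, and DESeq2 called 4.37% higher and 4.33% lower, so that these counts stand at or near the background. The nearest to the threshold were Stxbp5l (-0.70 ± 0.22, edgeR adjusted p = 0.0744) and Stx3 (-0.37 ± 0.11, adjusted p = 0.0752), whose 3 higher-glucose libraries lay below all 7 lower-glucose libraries. Groups did not overlap for 2 genes in each direction (2.82% each, against 5.39% of all genes for higher and 4.46% for lower). With 25 genes lower under endocrine scaling, where 28.8% of all genes were lower and their median was -0.45, the direction of this comparison as a whole hung on the scaling. Acinar markers took 37.8% ± 4.83 of counts in higher-glucose and 33.1% ± 11.5 in lower-glucose Px (SD, n = 3 and 7, exact permutation p = 0.517). Other markers did differ. The summed delta and PP cell markers were 2327 to 2839 CPM in higher-glucose and 886 to 1656 CPM in lower-glucose Px, with 2 of 5 called higher. The fibroblast sum was 1357 to 2141 CPM in higher-glucose and 2787 to 7032 CPM in lower-glucose Px, with 4 of 11 called lower, and 3 of the 8 endocrine granule genes were called higher. The part of these in the Doc2b and Rab3b differences was not tested.

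Within the 7 lower-glucose Px rats, the slope on log2 glucose was called by edgeR for 0 of 62 exocytosis genes and 0 of 13752 genes in all (0%). An unadjusted p under 0.05 was reached by 7 of the 62 and by 1276 of all genes. DESeq2 called 1 exocytosis gene, higher, and 0.662% of all genes higher. The smallest p was that of Unc13a, with a log2 change of 1.13 ± 0.22 per doubling of glucose (edgeR adjusted p = 0.38).

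**Figure D5:**
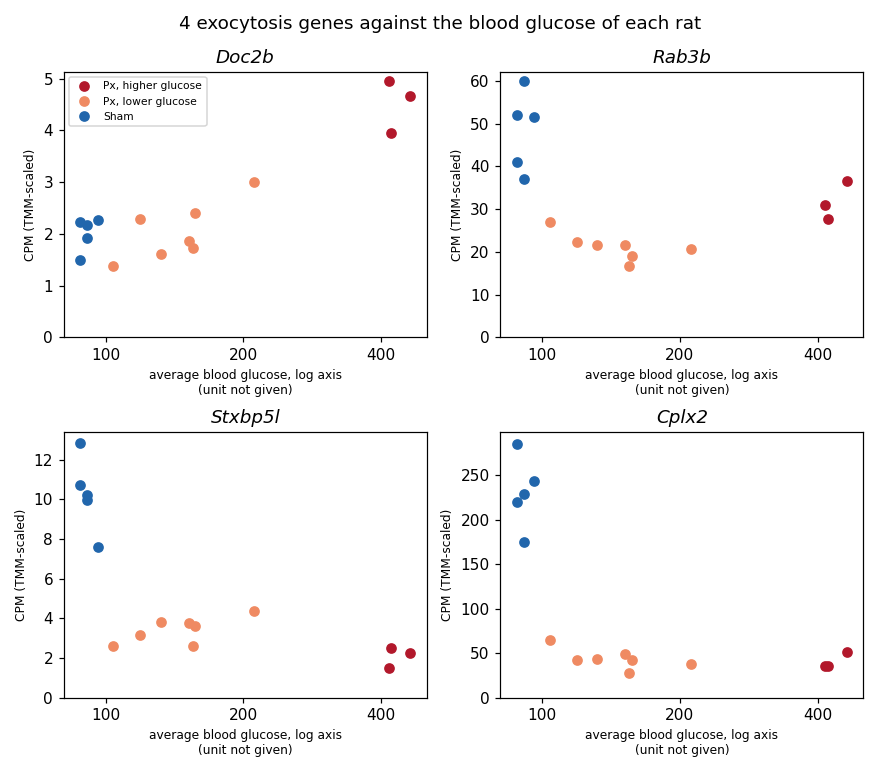
TMM-scaled CPM (y axis, linear from 0) of Doc2b, Rab3b, Stxbp5l and Cplx2 against the average blood glucose of each rat (x axis, log scale, unit not given) for higher-glucose Px (n = 3), lower-glucose Px (n = 7) and Sham (n = 5). Doc2b stands at 3.95 to 4.95 CPM in higher-glucose Px and at most 3.01 CPM elsewhere, while Cplx2 is at most 64.3 CPM in every Px library.

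Of 57 further genes of the exocytic pathway, 55 were tested, and 8 were higher and 34 lower in Px, with a median log2 fold change of -0.40. Over all genes tested, 34.5% were higher and 30.2% lower. The 4 largest falls are given first. Pclo, a scaffold of release sites, averaged 84.1 ± 16.7 CPM in Px and 206 ± 36.8 CPM in Sham (log2 fold change -1.29, edgeR adjusted p = 5.97e-07). Exph5, a Rab27 effector, averaged 10.1 ± 2.03 CPM in Px and 23.95 ± 2.99 CPM in Sham (-1.25, edgeR adjusted p = 6e-07). Cadps, which primes dense-core granules, averaged 85.4 ± 9.04 CPM in Px and 194 ± 26.98 CPM in Sham (-1.19, edgeR adjusted p = 4.4e-08). Sv2a, a vesicle membrane glycoprotein, was at 41.4 ± 5.11 CPM in Px and 92.3 ± 8.14 CPM in Sham (-1.16, edgeR adjusted p = 3.15e-08). Among those that rose, Mlph, a Rab27 effector of pigment cells and epithelia, was at 4.03 ± 1.28 CPM in Px and 0.480 ± 0.303 CPM in Sham (3.04, edgeR adjusted p = 4.47e-06). Cadps2, a paralog of Cadps, was at 17.0 ± 5.07 CPM in Px and 5.95 ± 1.67 CPM in Sham (1.51, edgeR adjusted p = 2.02e-05), and at 0.28 with the acinar score (adjusted p = 0.564). The exocyst-linked GTPases Ralb and Rala rose by 1.29 and 0.74 (edgeR adjusted p = 2.59e-08 for Ralb and 0.00019 for Rala), the Rala change being 0.24 with the acinar score (adjusted p = 0.492). Of these genes, 14 were higher and 9 lower under endocrine scaling, and 2 were higher and 21 lower once the acinar score entered the fit. Over all genes, these settings gave 48.9% higher and 6.57% lower, and 20.6% higher and 16.8% lower.

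The authors' deposited table listed 68 of the exocytosis genes, with 11 higher and 40 lower at the same threshold, and its calls were the same as those given here for all 51.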

How the data were processed

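Polyadenylated RNA of islets was sequenced from 15 rats, one library each; a miRNeasy kit was used for extraction and a directional kit for the libraries, per the labels' protocols. The deposited values are unnormalized counts of reads for each gene, beside exon lengths in bases (per the file headers), which gave the values per kilobase. The submitters' processing notes name FastQC, Subread, featureCounts and limma. Neither build, annotation nor strand setting is given in the sources used here, so antisense partners may share reads. The authors' deposited comparison table gives, per the file headers, a log2 fold change with raw and adjusted p-values for each gene; it was used only for the closing comparison of calls. The titles' mark Inc_YES has no explanation in these sources.

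Groups came from the labels, with Px divided at a glucose of 300. Genes with low counts were removed by filterByExpr (its defaults: count 10, total 15; a level of 0.449 CPM on library totals in at least 5 libraries for Px against Sham), which kept 68 of the 77 genes. Of these 59 reached that level in every Sham library and at least 5 Px libraries, 6 were under it in at least 1 Sham library and 4 in more than 5 Px libraries. Libraries were scaled by TMM and tested two-sided in R 4.3.3 by the quasi-likelihood functions of edgeR 4.0.16, and p-values were adjusted by Benjamini-Hochberg over all genes tested (threshold 0.05). One fit held Px and Sham as 2 groups; the comparisons by glucose came from a fit of 3 groups, and the slope from lower-glucose Px alone. The standard error is the log2 fold change divided by the square root of the F statistic. Alternatives were other size factors, no filter, DESeq2 1.42.0, limma 3.58.1 (voom), scaling to endocrine genes, acinar and macrophage scores as covariates, and leaving out each library. The script was checked on simulated counts. Two-sided exact permutation tests over samples compared library totals and acinar shares. No pair of libraries within a group was alike within sampling noise.

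Genes given in full were a panel of the beta cell machinery, the largest called falls and rises (up to 8 each) with a mean of at least 1 CPM and all Px libraries on one side of the Sham mean, and the genes called between the glucose ranges; Vamp5, Syt8, Stx2, Stx3 and others named outside this rule were chosen after their values were seen. The members, lists and alternatives were chosen with earlier results of these data known. Snap23 of the panel, and Sv2b of the further pathway genes, were not analysed here, and the values of 1 tested gene are not reported here. Promoter sequences are from RefSeq (GRCr8).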

Additional observations from a re-analysis of the deposited data

Results flagged for a closer look

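Within groups, 7 of 88 sets of values (a named gene in one group) had one library standing apart from the rest of its group by Dixon's criterion; chance flags about 1 in 20. Lower-glucose Px replicate 8 accounted for 5 of them. It was lowest for Sytl4, at 62.2 CPM against 88.1 to 108 CPM in the other 6 lower-glucose Px libraries, for Syt17, at 13.5 CPM against 20 to 22.5 CPM, for Rims3, at 6.17 CPM against 7.90 to 9.13 CPM, and for the priming factor Cadps, at 62.9 CPM against 82.4 to 95.1 CPM. The same library was highest for Unc13d, at 12.9 CPM against 4.26 to 5.63 CPM. Sham replicate 24 was highest for Sytl2, at 1.06 CPM against 0.481 to 0.578 CPM in the other Sham libraries. Sham replicate 23 was lowest for Mlph, at 0.0529 CPM against 0.4 to 0.787 CPM.

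The effect of Px was called different between the glucose ranges for Doc2b and Rab3b by the test of the difference itself, at 1.15 and 0.58 on the log2 scale (higher- over lower-glucose Px). These are 2 of 71 genes tested (2.82%), against 3.29% of all genes called higher. The Rab3b call was lost when any of several single libraries was left out and under other scalings. The Doc2b call was lost under scaling by library totals.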

How the results depend on the processing

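Counts of exocytosis genes stayed within 1.5 times the reported ones with DESeq2 size factors, without the filter and with limma voom. In Px against Sham the 11 higher and 40 lower became 7 higher when libraries were scaled by totals, 19 higher and 20 lower under endocrine scaling, 0 and 0 with the macrophage score (which left 0 of all 15199 genes called), and 7 higher and 14 lower when a log2 fold change of at least 1 was required. Among all genes, 17.5% were higher with library totals, and 48.9% were higher and 6.57% lower under endocrine scaling. With the minimum fold change, 22.3% of all genes were higher and 4.26% lower. Higher-glucose Px against Sham gave 4 higher and 56 lower with library totals, where 11.9% of all genes were higher and 57.9% lower. Lower-glucose Px against Sham gave 25 higher and 20 lower with endocrine scaling, where 57.7% of all genes were higher and 5.56% lower. Between the glucose ranges the 2 higher became 0 with library totals and 1 with endocrine scaling or the acinar score, and the 0 lower became 25 under endocrine scaling, 3 in DESeq2 and 1 with the macrophage score. Of all genes, 0.294% were then higher with library totals, 1.09% under endocrine scaling and 2.31% with the acinar score. The share lower was 28.8% under endocrine scaling, 4.33% in DESeq2 and 2.54% with the macrophage score. The slope gave 1 higher with DESeq2, where 0.662% of all genes were higher. The further pathway genes gave 14 higher and 9 lower under endocrine scaling, 3 higher with library totals, 2 and 21 with the acinar score, and 0 in both directions with the macrophage score. Left out in turn, single libraries gave ranges of 9 to 12 higher and 38 to 41 lower for Px, 9 to 10 and 33 to 38 for higher-glucose Px, 10 to 12 and 40 to 42 for lower-glucose Px, 1 to 2 and 0 to 1 between the glucose ranges, 0 for the slope, and 7 to 8 and 30 to 36 for the further genes. The acinar difference of 28.9 percentage points, Px minus Sham, ranged over 26.97 to 31.5, and that of 4.71 between the glucose ranges over 2.70 to 7.83.

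Signs turned for Snap25 (0) and Unc13a (0.05) and Doc2b (-0.35) with the acinar score, for Vamp8 (-0.25) and Doc2b (-0.28) with library totals, and for Stxbp5 (0.03), Syt4 (0.02), Syt5 (0.22) and Rab3d (0.17) with endocrine scaling. With the macrophage score they turned for Snap25 (1.08), Vamp8 (-0.48), Unc13a (0.56), Unc13b (0.47), Syt4 (0.40), Syt5 (0.12), Syt9 (0.04), Sytl4 (0.17), Unc13d (-0.78), Pclo (0.09), Exph5 (0.06) and Rala (-0.23), all in Px against Sham. Genes named outside the rule also turned: Stx16 (0.08), Stx3 (0.07), Stx7 (-0.02), Stx8 (0) and Snap29 (-0.13) with the acinar score, Stx2 (-0.27), Stx7 (-0.56), Stx8 (-0.62), Stxbp2 (-0.61), Snap29 (-0.60) and Vamp3 (-0.57) with library totals, and Stx3, Stx5, Stx6, Stx12, Stx17, Stx18, Stxbp3 and Vamp7 (0.14 to 0.40) under endocrine scaling. With the macrophage score Stx7, Stx8, Stx12, Stx16, Stxbp2, Snap29, Snap91, Syt1, Syt2, Vamp3, Vamp4 and Vamp5 turned (-0.93 to 0.84). The summed macrophage markers were 732 to 3868 CPM in Px and 31.4 to 70.1 CPM in Sham. Score and group can thus hardly be told apart, and 0 of all 15199 genes passed in that fit. Its sign turns therefore do not tell how firm a change is. The cause of the turns was not tested. Without the libraries of highest acinar share (lower-glucose Px 16 and Sham 25) 8 exocytosis genes were higher and 38 lower in Px. Of all genes, 32.6% were then higher and 27.5% lower. Chosen after seeing the data were this setting, the omission of Sham 23 and 24, and endocrine scaling of each glucose range against Sham. No paired analysis was possible because the groups share no replicate numbers. Genes near 1 CPM, such as Syt8, are limited by depth, and 3 higher-glucose rats limit the comparison by glucose.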
